A study of Mus musculus with 2 samples.

Results

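In all, 10 genes of the pericentral, Wnt-dependent programme of the mouse liver were followed: Axin2, Lgr5, Rnf43, Znrf3, Tbx3, Glul, Oat, Rhbg, Lhpp and Cyp1a2. They were listed by name for their known place in that programme, with earlier results of these data known, and their probes were found through RefSeq transcript identifiers. All 10 genes had a probe, among 20652 gene symbols on the array, and 9 of them were well above background on both arrays, as were 14288 genes in all. Male mice received either a control adenovirus (Ad-Ctrl) or an adenovirus labelled for overexpression of miR-378 (Ad-378), and their liver RNA was compared. Both viruses went into the tail vein of mice aged 8 weeks at 1e9 plaque forming units, and each group was 1 pool of 5 livers on 1 array. Livers were taken after 2 weeks per the protocols of both groups, whereas the description of the Ad-378 pool gives 3 weeks. The strain, the insert of the control virus and the promoter of the miR-378 virus were not given in the sources used here.

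A liver lobule runs from the portal vein to the central vein, and hepatocytes along that axis express different genes. Endothelial cells of the central vein secrete Wnt ligands and R-spondin 3, which stabilise beta-catenin in the adjoining hepatocytes and, with TCF transcription factors, switch on the pericentral genes. Pericentral hepatocytes capture leftover ammonium as glutamine and carry out much of the cytochrome P450 metabolism, whereas periportal hepatocytes run the urea cycle and gluconeogenesis.

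With 1 array per group there is no spread between replicates, so no test between the groups was possible and no difference below has a replicate check. Signals are background-subtracted scanner intensities in arbitrary units, and every log2 difference is Ad-378 minus Ad-Ctrl after each array was scaled to its own 75th percentile, a signal of 800 for Ad-Ctrl and 695 for Ad-378. The error given is the scanner's own for both spots and covers measurement on the array only. It is not a spread measured between spots, since each probe of the 10 genes had 1 spot per array. Its value was 0.204 for Cyp1a2, Glul and Oat alike, despite their different signals. Separately, 320 probes repeated 10 times on each array varied by a log2 standard deviation of 0.075 (Ad-Ctrl) and 0.084 (Ad-378). The 95% ranges below rest on the scanner error and not on that measured spread. RNA came from whole liver, so fewer cells of a type and less RNA per cell cannot be told apart. The tissue label was met by 14 of 14 measured hepatocyte markers, whose differences lay between -0.04 and 0.35 with a median of 0.18. Loess scaling brought that median to -0.03 and quantile scaling nearer still to 0, so a bright gene's value depends on the scaling by about that much.

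Promoters of 5 of the 10 genes were read from a RefSeq table of build GRCm38.p6, in 6 entries of 300 bases that span 250 bases before to 50 after a gene's start. They are shown for Axin2, the gene most widely used to read beta-catenin output, for Oat, which differed most between the pools, and for Cyp1a2, the sole gene among the 5 whose window held letters that TCF factors are known to bind. The strands are plus for Axin2 and minus for Oat and Cyp1a2, and each sequence runs 5′ to 3′ along its gene. Capitals mark TTCAAAG and TATAAA. The positions are chr11:108920099-108920398 for Axin2, chr7:132576349-132576648 for Oat and chr9:57683606-57683905 for Cyp1a2.
Axin2: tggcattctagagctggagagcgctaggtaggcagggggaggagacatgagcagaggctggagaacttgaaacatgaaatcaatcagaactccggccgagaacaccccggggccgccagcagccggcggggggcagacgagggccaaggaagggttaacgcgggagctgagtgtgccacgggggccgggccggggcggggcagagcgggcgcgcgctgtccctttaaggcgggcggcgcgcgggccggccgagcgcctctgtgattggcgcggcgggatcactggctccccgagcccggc
Oat: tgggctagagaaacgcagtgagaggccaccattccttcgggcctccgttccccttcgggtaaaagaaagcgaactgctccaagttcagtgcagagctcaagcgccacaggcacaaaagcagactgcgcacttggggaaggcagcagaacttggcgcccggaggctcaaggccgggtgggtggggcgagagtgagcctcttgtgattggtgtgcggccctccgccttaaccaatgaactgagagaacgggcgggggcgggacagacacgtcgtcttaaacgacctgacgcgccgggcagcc
Cyp1a2: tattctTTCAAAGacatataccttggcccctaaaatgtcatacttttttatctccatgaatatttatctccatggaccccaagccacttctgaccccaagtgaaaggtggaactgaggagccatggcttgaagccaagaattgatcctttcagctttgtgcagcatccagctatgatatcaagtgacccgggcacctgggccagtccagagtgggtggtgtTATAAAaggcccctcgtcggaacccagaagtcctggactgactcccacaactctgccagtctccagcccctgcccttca

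The motif ATCAAAG was searched on both strands, together with TTCAAAG, then with AACAAAG, and also with TACAAAG. Any of them was present in 16.88% of the 32851 promoter entries and in 1 of the 6 entries read here, as TTCAAAG at position -244 of Cyp1a2, counted from the gene's start. TTCAAAG alone was held by 5.14% of entries. TATAAA, the core of the TATA box, stood at position -29 of Cyp1a2 and was present in 13.62% of entries. GCGTG, the core to which the aryl hydrocarbon receptor binds, was in 1 of the 6 entries, an entry of Rnf43, against 32.39% of all entries. A match describes letters in a window and shows no binding, and the arrays measured none.

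None of the 9 measured genes was 2-fold apart between the pools. Beside that, 7.36% of the 14288 genes were 2-fold apart or more, 2.83% in the direction of Ad-378 and 4.52% in that of Ad-Ctrl. At 1.5-fold, still 0 of the 9 genes passed, against 20.8% of all genes (8.78% toward Ad-378 and 12.1% toward Ad-Ctrl). The 9 differences ran from -0.14 (Lgr5) to 0.57 (Oat), with a median of 0.29 where the median over all measured genes was 0.04. In size, the median difference of the 9 was 0.29, and that of all genes was also 0.29. Among them, 6 genes had a higher scaled level in the Ad-378 pool and 3 a lower one, where 53.9% of all genes had a positive difference. The sign of each stayed the same under 7 of 7 other ways of processing the values. Of these ways, removing the background filter changed none of the 9 values, and averaging over probes could change only Lhpp. Oat, Tbx3 and Rnf43 lay above 0 by more than the 95% range of the scanner error, as did 15.9% of all genes, and none of the 9 lay below it, where 17.4% of all genes did.

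**Figure D1:**
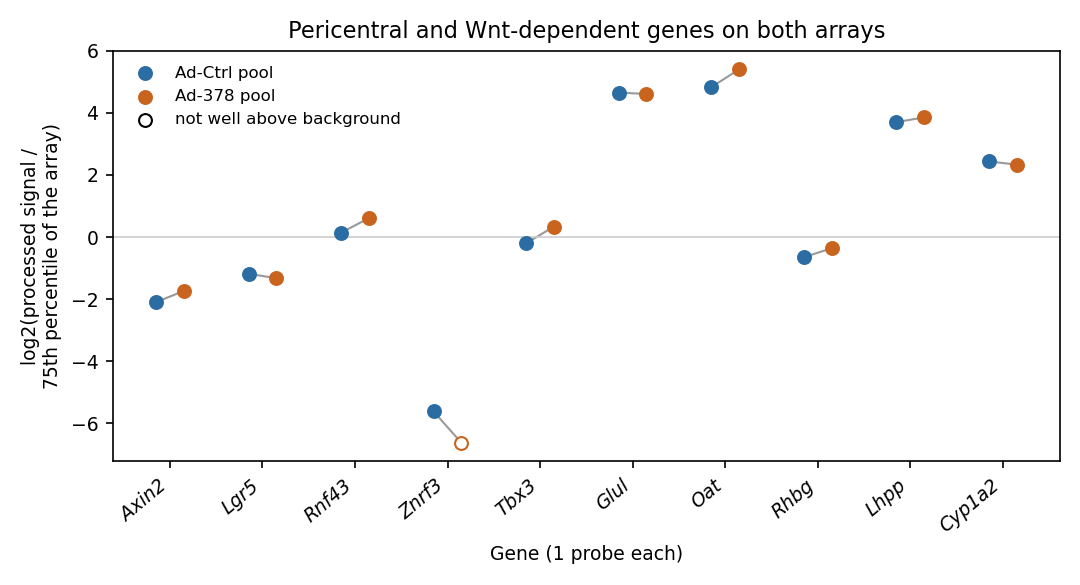
Scaled log2 processed signal (vertical axis) of 1 probe for each of the 10 genes (horizontal axis) in the Ad-Ctrl pool (blue) and the Ad-378 pool (orange), 1 array each, with no error bars since each group has 1 array. The paired points lie close together for 9 genes, from -0.14 for Lgr5 to 0.57 for Oat, and Znrf3 (open point) was not well above background in Ad-378. Heights of different genes come from different probes and are not comparable.

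The feedback genes of the pathway are the most direct readout. Axin2 encodes a scaffold of the beta-catenin destruction complex and is itself switched on by beta-catenin. Its signal was 187 (Ad-Ctrl) and 208 (Ad-378), a log2 difference of 0.36 (scanner error 0.21), whose 95% range of -0.05 to 0.77 includes 0. Under the other ways of processing the difference ran from 0.30 to 0.39. A second Axin2 probe was not well above background in either pool, with signals of 3.34 and 6.68, and gives no value.

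Rnf43 and Znrf3 encode related membrane ubiquitin ligases that remove Frizzled receptors from the cell surface, and both are targets of the pathway they restrain. The Rnf43 signal was 882 (Ad-Ctrl) and 1058 (Ad-378), a log2 difference of 0.47 (scanner error 0.20). This was higher than 86.3% of all measured genes. Znrf3 was the dimmest of the 10 on these arrays. Its signal of 16.2 in Ad-Ctrl was just over the dimmest detected probe of that array (15.2), and its 7.01 in Ad-378 was not well above background, a lower bound of 1.25-fold for Ad-Ctrl over Ad-378. Rnf43 thus had the higher value in Ad-378 and Znrf3 in Ad-Ctrl, the latter at the limit of detection. The 95% range of the Znrf3 difference, from -2.18 to 0.17, includes 0.

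Lgr5 encodes an R-spondin receptor that keeps Rnf43 and Znrf3 off the Frizzled receptors and marks hepatocytes next to the central vein. Its signal was 352 (Ad-Ctrl) and 277 (Ad-378), which after scaling gave a log2 difference of -0.14 (scanner error 0.20). The 95% range, from -0.54 to 0.26, includes 0. Tbx3, a T-box transcription factor of pericentral hepatocytes and their precursors, had signals of 695 and 879 and a log2 difference of 0.54 (scanner error 0.20), higher than 89.7% of measured genes. Its difference stayed between 0.48 and 0.55 under the other ways of processing. Of these 4 beta-catenin readouts measured on both arrays (Axin2, Rnf43, Lgr5 and Tbx3), 3 had the higher value in Ad-378 and Lgr5 the lower.

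A part of the group, 3 genes, handles nitrogen. Glul encodes glutamine synthetase, which joins ammonium to glutamate in the last hepatocytes before the central vein. Its signal was 20188 (Ad-Ctrl) and 16937 (Ad-378), and the scaled log2 difference was -0.05 (scanner error 0.20). Quantile and loess scaling gave -0.22 and -0.21, the lowest values of Glul under any processing that was run. Against the median of hepatocyte markers Glul stood at -0.24 on the main scale.

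Oat encodes ornithine aminotransferase, the mitochondrial enzyme that turns ornithine into a precursor of glutamate. Its signal was 22758 (Ad-Ctrl) and 29379 (Ad-378), a log2 difference of 0.57 (scanner error 0.20), or 1.49-fold, just inside 1.5-fold. This was higher than 90.8% of measured genes. It was 0.40 after loess scaling and 0.62 on the deposited series matrix values, which is past 1.5-fold. Under quantile and loess scaling Tbx3 (0.55 and 0.53) lay above Oat (0.42 and 0.40). Rhbg encodes an ammonium transporter of the basolateral membrane, and its signals of 510 and 540 gave a log2 difference of 0.29 (scanner error 0.20) and a 95% range of -0.12 to 0.69. Glul and Oat, both enriched next to the central vein in normal liver, thus lay on opposite sides of 0, although Glul on the main scale was within its scanner error of 0.

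Cyp1a2 and Lhpp complete the group. Cyp1a2 encodes the cytochrome P450 that oxidises caffeine and aromatic amines, and is driven by the aryl hydrocarbon receptor as well as by beta-catenin. Its signal was 4330 (Ad-Ctrl) and 3502 (Ad-378), a log2 difference of -0.10 (scanner error 0.20). Lhpp encodes a histidine phosphatase, and 2 probes measured it. The brighter had signals of 10410 and 10070 and a log2 difference of 0.15, and the dimmer had 274 and 264 and a difference of 0.15 as well. Lhpp was the gene of the group closest to the hepatocyte markers, at -0.03 from their median.

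**Figure D2:**
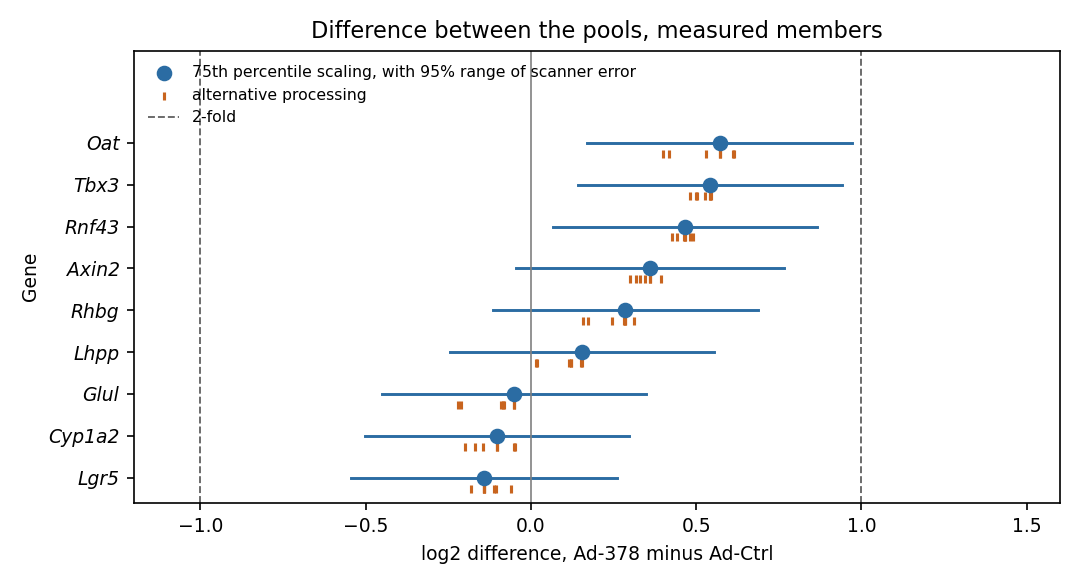
Log2 difference, Ad-378 minus Ad-Ctrl (horizontal axis), of the 9 genes measured on both arrays (vertical axis), as a blue point with the 95% range of the scanner error as a bar. Orange ticks are the same gene under the 7 other ways of processing, and dashed lines mark 2-fold. No point or tick reaches 2-fold, and the ranges of Oat, Tbx3 and Rnf43 lie above 0.

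**Figure D3:**
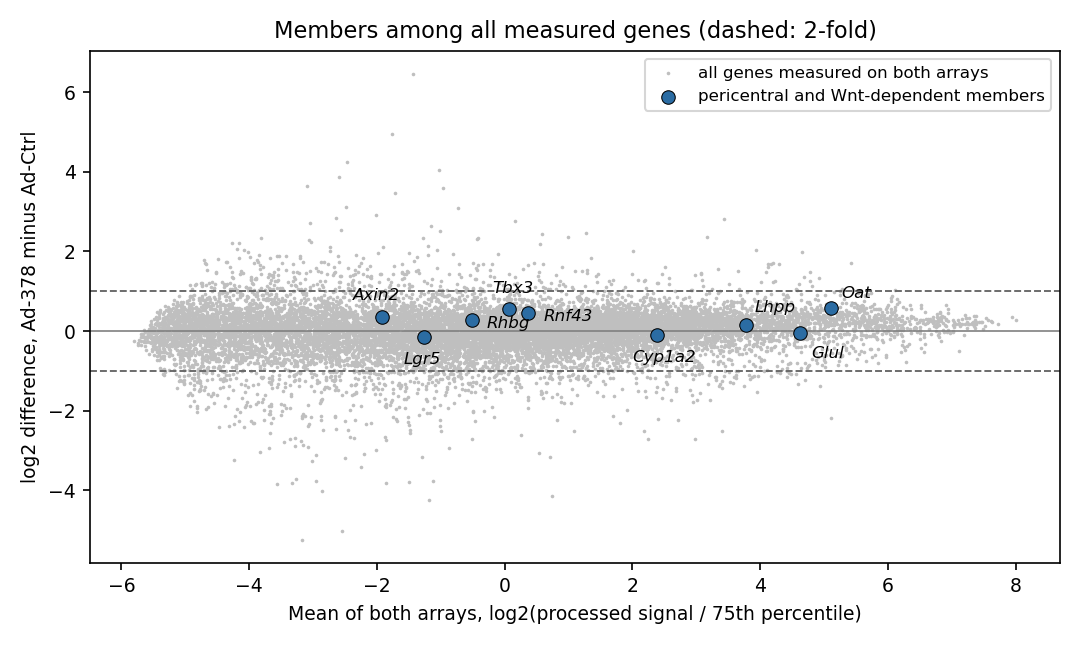
Log2 difference, Ad-378 minus Ad-Ctrl (vertical axis), against the mean scaled log2 signal of both arrays (horizontal axis) for 14288 genes (grey) and the 9 measured genes of the group (blue, named). The named genes lie between -0.14 and 0.57, inside the dashed lines of 2-fold, while 1051 of the grey points lie on or beyond them.

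Other genes known to be pericentral ran from -2.19 to 1.26, a wider range than that of the 9 but over a longer list. Of 38 listed, 35 were measured, 18 with a positive and 17 with a negative difference, and the median was 0.02, which turned to -0.11 and -0.14 under quantile and loess scaling. In it, 1 gene was past 2-fold toward Ad-378 and 2 were past it toward Ad-Ctrl, where 2.83% and 4.52% of all genes were. Cyp2e1, the ethanol-oxidising P450 that is a classical pericentral marker, had signals of 115827 (Ad-Ctrl) and 114109 (Ad-378) and a difference of 0.18, which was -0.05 and -0.04 under quantile and loess scaling. Slc1a2, the glutamate transporter found in the glutamine synthetase layer, had signals of 3849 and 3234 and a difference of -0.05. Other detected probes gave 0.36 for Cyp2e1 and -0.22 for Slc1a2. Among the probes used, those of Cyp2e1, Slc1a2 and Glul lay within their scanner error (0.20) of 0 on the main scale.

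The genes past 2-fold in that list were others. Gstm3, a glutathione transferase, had signals of 58852 (Ad-Ctrl) and 11218 (Ad-378) and a difference of -2.19, with -1.39 at its other probe. Avpr1a, the vasopressin receptor of pericentral hepatocytes, had signals of 1425 and 526 and a difference of -1.24. Slc22a3, an organic cation transporter, had signals of 73.5 and 153 and a difference of 1.26, which was 0.93 after normexp background correction. Slc16a10, an aromatic amino acid transporter, was next in size at -0.81, but its other probe gave 0.69, so its direction was not settled.

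Of 37 listed periportal genes, which mark the other end of the lobule, 35 were measured. Of these, 10 lay above 0 by more than the 95% range of the scanner error and 2 below, against 15.9% and 17.4% of all genes. This count depended on the scaling as well. Otc, at 0.52, was 0.34 under quantile and loess scaling, inside that range. By sign alone 26 were positive and 9 negative, a split that depended on the scaling, since 20 were positive under quantile and 20 under loess scaling. Over all genes the positive share was 53.9%, and 49.3% and 47.4% under those scalings. The median of the periportal genes was 0.21, and 0.06 and 0.01 under quantile and loess scaling. Among them 2 were at least 2-fold higher, the sulfotransferase gene Sult5a1 (signals of 547 and 2184, a difference of 2.20) and Pigr, the transporter of dimeric immunoglobulin A (9741 and 20072, a difference of 1.25). Rnase4, a secreted ribonuclease, was at least 2-fold lower, with signals of 39518 and 13211 and a difference of -1.38. Agxt, the peroxisomal enzyme that detoxifies glyoxylate, was next at 0.90. Set beside each other, the medians of the 9 genes (0.29), the other pericentral genes (0.02), the periportal genes (0.21) and the hepatocyte markers (0.18) were not tested against each other.

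Glutamine and ammonium handling beyond Glul, Oat and Rhbg was measured for 27 of 32 listed genes, of which 12 had a positive and 15 a negative difference. The median was -0.05 and changed sign to 0.02 both after normexp and on the series matrix. Some of these genes are also in the periportal list, such as Gls2. Gls2, the liver glutaminase of periportal cells that releases ammonium from glutamine, had signals of 27034 (Ad-Ctrl) and 38484 (Ad-378) and a difference of 0.71. Slc38a3, a glutamine transporter, had 0.69. Aldh18a1, which makes the proline and ornithine precursor that Oat also produces, was dim (105 and 39.3) with a difference of -1.22, which was -0.59 after normexp and -0.69 on the series matrix values. Slc1a1, a glutamate transporter, was well above background in Ad-Ctrl only and at least 3.51-fold higher there.

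Genes upstream of the readouts were read in the order ligand, receptor, core and inhibitor. Among 26 genes of Wnt ligands, R-spondins and their secretion, 10 were measured on both arrays, 2 were detected in Ad-378 only and 13 were well above background in neither pool, among them Wnt2, a ligand of liver endothelium. The remaining gene, Wnt9b, had no probe and could not be measured. Of the 2 detected in Ad-378 only, Wnt7b had signals of 17.4 (Ad-Ctrl) and 14.1 (Ad-378), a difference of -0.09. Rspo3, the R-spondin of the central vein, had signals of 1003 (Ad-Ctrl) and 662 (Ad-378) and a difference of -0.40 (scanner error 0.20). Wls, the carrier that brings Wnt ligands to the cell surface, had signals of 675 and 382 and a difference of -0.62. Wnt5b, a ligand mostly known for signalling without beta-catenin, had signals of 579 and 1590 and a difference of 1.66, and stayed between 1.57 and 1.66 under the other ways of processing. Porcn, which attaches the lipid that Wnt ligands need, had 0.60, and Wnt1, a ligand of the beta-catenin branch, had 0.40.

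Rspo3 and Wls lay on the same side of 0 as most endothelial markers. Of 18 such markers, all measured, 15 were below 0, where 53.9% of all genes were above it. The list had a median of -0.23 and scaled log2 medians of 1.45 (Ad-Ctrl) and 1.22 (Ad-378). Beyond the 95% range of the scanner error, 4 of the 18 lay below 0 and 1 above, against 17.4% and 15.9% of all genes. Thbd, the thrombomodulin gene, was the lowest at -1.01, followed by Lyve1 (-0.74), Tek (-0.59) and Tie1 (-0.56). The part of endothelial RNA in the values of Rspo3 and Wls was not tested.

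Of 18 Wnt receptors listed, 11 were measured. Among these, 3 (Lgr4, Fzd4 and Fzd7) lay above 0 by more than the 95% range of the scanner error, as did 15.9% of all genes. By sign alone 10 were above 0, where 53.9% of all genes were. The median of the 11 was 0.35 and ran from 0.24 to 0.37 under the other ways of processing. Lgr4, the R-spondin receptor that acts beside Lgr5, had signals of 118 (Ad-Ctrl) and 257 (Ad-378) and a difference of 1.33, which was 1.02 on the series matrix values and 0.91, inside 2-fold, after normexp. Its relative Lgr5 differed by -0.14, as above. Fzd4 had signals of 563 and 859 and a difference of 0.81, and Fzd7 had 369 and 559 and a difference of 0.80. Both are Frizzled receptors, and Lrp6, the co-receptor, had 0.41 with its probes at 0.40 and 0.41. Ror2, a receptor of the branch without beta-catenin, was well above background in Ad-378 only and at least 2.47-fold higher there.

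The core of the pathway was measured almost whole, 34 of 36 genes, with 15 positive and 19 negative differences and a median of -0.08. Ctnnb1, beta-catenin itself, had signals of 12923 (Ad-Ctrl) and 10710 (Ad-378) and a difference of -0.07. Apc, a scaffold of the destruction complex, had -0.17, and Tcf7l2, the main TCF factor of hepatocytes, had -0.09, both at dim signals between 49.5 and 88.0. The coactivator Crebbp was the sole core gene past 2-fold, with signals of 432 and 148 and a difference of -1.34, and its paralogue Ep300 had -0.64. Usp34, a deubiquitinase that stabilises axin, had -0.69, and Bcl9l, a beta-catenin cofactor, had 0.69 (0.36 on the series matrix values).

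Of 21 secreted and feedback inhibitors, 7 were measured on both arrays, 6 were detected in Ad-378 only and 8 in neither pool. The Ad-378 array detected dimmer probes, down to a signal of 11.3 against 15.2 on the Ad-Ctrl array. It also had more gene spots well above background (65.7% against 63.1%). The share of all genes detected in Ad-378 only is not given here, so the 6 have no such share beside them. Notum, a secreted enzyme that strips the lipid from Wnt ligands and a pericentral gene in liver, had signals of 5110 (Ad-Ctrl) and 4990 (Ad-378) and a difference of 0.17. Nkd1, a feedback inhibitor switched on by beta-catenin in the liver, had 263 and 291 and a difference of 0.35 (scanner error 0.21). Like the 0.36 of Axin2, this lay inside the 95% range of the scanner error. Nkd2, a relative of Nkd1, had 11882 and 5643 and a difference of -0.87. Nkd1 and Nkd2 had 2 probes each, of which 1 was well above background on both arrays. Frzb, a secreted Frizzled decoy, had 276 and 95.7 and a difference of -1.33, which was -0.97 on the series matrix values, and Dkk3, a member of the Dickkopf family, had -0.83.

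Some inhibitors were dim and detected in Ad-378 alone. Wif1, a secreted Wnt-binding protein, was at least 2.99-fold higher there, and Kremen2, a Dickkopf receptor, at least 2.30-fold. The other 4 genes detected in that pool alone had bounds of at most 1.48-fold. Sostdc1, 1 of these 4, had an unscaled signal of 16.25 in both pools.

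Beta-catenin targets known mainly from other tissues were split, with 12 negative and 9 positive differences over 21 measured genes of 28 and a median of -0.31. Sp5, a transcription factor that answers Wnt in many tissues, was the highest, with signals of 107 (Ad-Ctrl) and 220 (Ad-378) and a difference of 1.24. Birc5, the mitotic survivin gene, was the lowest at -1.45, with all 3 probes between -2.04 and -1.45. Jun had -0.99 and Ccnd1, the cyclin D1 gene, had -0.88. Birc5 is also in the proliferation list, where 18 of 22 measured genes were at least 2-fold lower in Ad-378, with a median of -1.98, and the part of that difference in the target values was not tested.

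Cyp1a2 could also be set beside other genes of the aryl hydrocarbon receptor. Of 12 listed, 10 were measured and 8 were below 0, and the median of the 10 was -0.47, which was -0.22 both after normexp and on the series matrix. Ahr, the receptor gene, had signals of 5368 (Ad-Ctrl) and 2876 (Ad-378) and a difference of -0.70, with -1.50 at its other probe. Nqo1, a quinone reductase that Nrf2 also drives, had -1.51, and Cyp1b1 had -0.78. Cyp1a1, the close relative of Cyp1a2, was dim (77.8 and 37.8) with -0.84, which was -0.28 after normexp, against -0.10 for Cyp1a2.

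**Figure D4:**
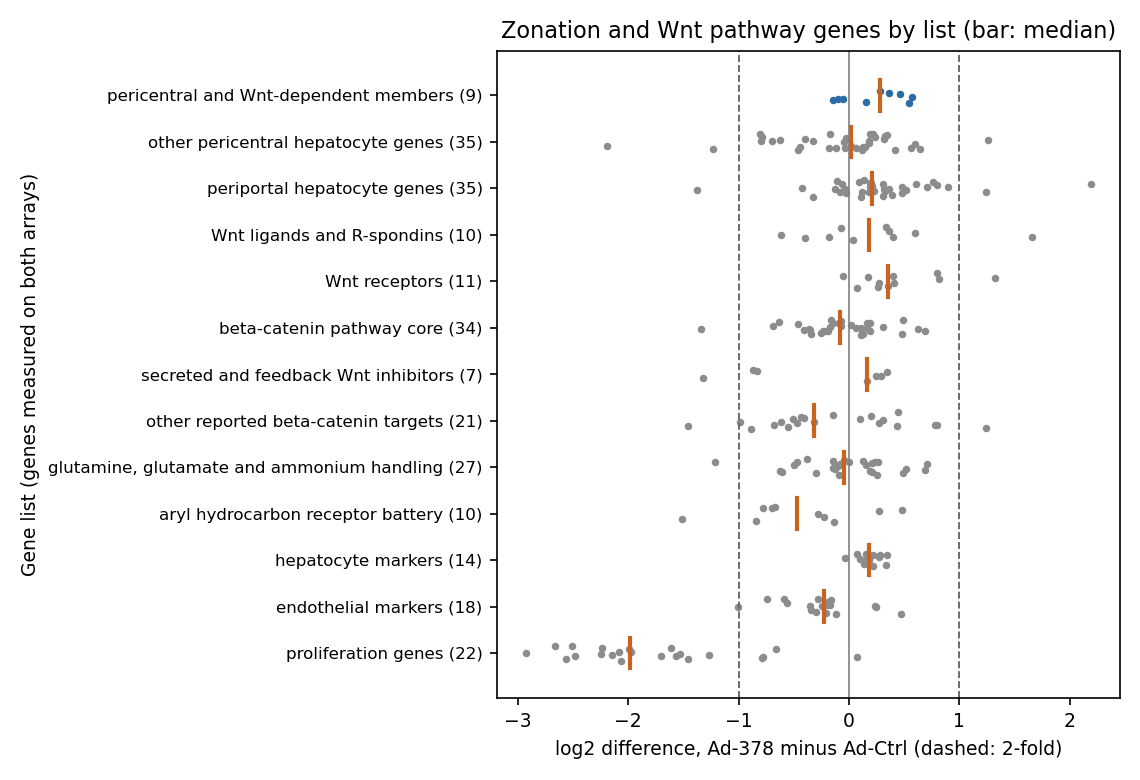
Log2 difference, Ad-378 minus Ad-Ctrl (horizontal axis), of each gene measured on both arrays, by gene list (vertical axis, number of genes in brackets), with an orange bar at each list's median and dashed lines at 2-fold. The 9 pericentral and Wnt-dependent genes (blue) lie within 2-fold around a median of 0.29, receptors around 0.35 and proliferation genes around -1.98.

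Markers of some other cells differed too, which bears on any gene not confined to hepatocytes. Over all genes 53.9% were positive. All 13 measured Kupffer cell and macrophage markers were below 0, with scaled log2 medians of 2.58 (Ad-Ctrl) and 1.76 (Ad-378) and the lowest at Gpnmb (-1.25). Among 13 stellate cell and fibroblast markers 12 were negative, with Col3a1 (-2.71) the lowest, and the median was -0.71. Of 9 cholangiocyte markers 6 were positive, not far from that share, and 3 were negative, down to -0.41. Their median of 0.55 was 0.29 both after normexp and on the series matrix. The highest were Cftr (1.75, and 0.87 after normexp) and Spp1 (1.29). What these cells contributed to the values of the 10 genes was not tested.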

How the data were processed

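Spot intensities of 1-colour Agilent arrays were deposited, with 44397 spots per array, of which 43020 were for genes. Per the file headers the authors' processed intensity was background-subtracted and detrended within the array, by Feature Extraction 11.0.1.1 (the submitters' processing notes name 9.1), with no scaling between arrays. The deposited series matrix intensities equal the raw median signal in 100% of values. The headers give the same scan for both arrays, so scans do not separate the groups. The labels' extraction protocol describes a blood RNA kit with globin removal, although the tissue is liver. Between 63.1% and 65.7% of gene spots were well above background, none was saturated, and the number of arrays limits the precision.

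Control spots and 123 outlier spots per array were left out. Spots of a probe were averaged as log2 values, minus the 75th percentile of the array. Of 39401 probes, 27219 matched 1 gene symbol by unversioned RefSeq identifier (GRCm38.p6 table) and 12182 did not. Each gene is given by the brightest of its probes that both arrays detected. A gene detected on 1 array has a lower bound of its fold, taken against its own signal on the other array or that array's dimmest detected signal, whichever was higher. The scanner error was computed from the deposited error of both spots (median 0.20), and its 95% range is 1.96 times that.

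The members and the 15 other gene lists were chosen with earlier results of these data known. Named were all members, 11 pathway genes always, the 4 largest differences of each other list, and genes detected on 1 array with a bound of at least 2-fold. Of the marker and proliferation lists, fewer than these are printed, 1 gene of another list is not reported here, and Notum, outside the rule, was chosen after its value was seen. The steps were tested on simulated data, with planted differences larger than that of any measured member and scanner error as the only noise. That test covers neither small differences nor variation between pools. Alternatives were quantile and loess (span 0.3) scaling, a 75th percentile over detected probes, the series matrix values, the mean over probes, normexp (offset 50) on the median signal, no background filter, and 1.5-fold and 3-fold thresholds. The normexp fit left out spots marked as background outliers. Scaling used Python 3.11.15 with pandas 2.3.3, numpy 2.4.6 and statsmodels 0.14.6, and normexp used limma 3.58.1 in R 4.3.3.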

Additional observations from a re-analysis of the deposited data

How the results depend on the processing

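No paired analysis was possible because there was 1 pool per group, and for the same reason no replicate could be left out. Of 63 values of the 9 measured genes under the alternatives, 63 stayed within 1 scanner error of the main value, and their median ran from 0.16 after normexp to 0.31 under quantile scaling. Removing the background filter left the values of these 9 unchanged, and averaging over probes could change only Lhpp. The 75th percentile over detected probes lowered every gene by the same amount, below 1 scanner error (Oat from 0.57 to 0.53). Agreement under these settings was therefore fixed in advance or nearly so. All alternatives reuse the same spots, so the scanner error serves here only as a yardstick of size. With no filter on background, 1 of 10 genes was at least 2-fold lower, namely Znrf3 (-1.01), whose Ad-378 signal was not well above background; under the other ways of processing the counts of genes past 2-fold stayed at 0 in both directions. On the main values they were 0 at 1.5-fold too, which fixes the 3-fold count at 0. Oat, however, passed 1.5-fold after normexp (0.61) and on the series matrix (0.62). Of 462 values of other named genes, 41 moved by more than 1 scanner error, and of 105 list medians 8 did; the cause was not tested. Over all genes, 405 were past 2-fold toward Ad-378 and 646 toward Ad-Ctrl; these counts were 222 and 394 for the series matrix, 200 and 353 for normexp, and 1058 and 1165 without the background filter. Normexp was run on the median signal, since the mean signal was not used here.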
